A study of Gallus gallus with 18 samples.

Results

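The retinal pigment epithelium (RPE) of the chicken embryo was compared at embryonic day 4 (E4) between developing eyes and eyes sampled 6 h post-retinectomy with FGF2 (6hPR + FGF2). The comparison used 6 of the 18 RNA-seq libraries of the series, chosen by label as the 3 E4 developing and the 3 E4 6hPR + FGF2 libraries. E4 corresponds to Hamburger-Hamilton stage 24. In the developing group the RPE was taken from unoperated embryos. In the 6hPR + FGF2 group the neural retina was removed surgically, and heparin beads carrying FGF2 were placed in the emptied eye cup. The 3 E4 libraries of retinectomy without FGF2 (6hPR), and the 6 libraries of developing and 6hPR + FGF2 RPE at E5 (stage 26), served to show where the response differed. All 18 libraries, including 3 of 6hPR at E5, entered the fit that estimated the spread behind the p values. The labels name no mutation or transgene in any group. The labels describe White Leghorn eggs from Michigan State University, whereas the methods of the study name another supplier for RNA-seq. RPE sheets were pooled by 3 for a library, and replicates are such pools. The 6hPR group shares the surgery and the 6 h with the 6hPR + FGF2 group and differs from it by the FGF2 beads. Surgery and the hours after it cannot be told apart, nor can FGF2 and the beads. The labels describe no group given beads without FGF2.

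The RPE and the neural retina arise from the same optic neuroepithelium. MITF and OTX factors direct the RPE layer to make pigment, and other homeodomain factors direct the adjacent layer to form neural retina. In early chicken embryos the RPE can still turn into neural retina when the retina is removed and FGF2 is supplied, and this competence is lost as the RPE matures. FGF2 binds FGF receptors, activates the RAS-ERK kinase cascade, and induces transcription of its own feedback inhibitors, among them the Sprouty and DUSP families, and of ETV transcription factors.

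The values are normalized counts, meaning reads on a gene divided by the size factor of the library. They are given for libraries 1, 2 and 3 in that order, or as mean ± SD (n = 3), and should be compared within a gene. Reads on genes came to between 61.1 and 73.0 M in the developing libraries and between 53.6 and 59.9 M in the 6hPR + FGF2 libraries. The labelled tissue was checked against its markers, and all 10 RPE markers were detected in all 6 libraries, with a summed level of 480033 to 557964 in developing RPE and 402818 to 620850 after 6hPR + FGF2. Of these markers 5 (*MITF*, *MLANA*, *SLC45A2*, *TFEC* and *RPE65*) were called lower after 6hPR + FGF2 (limma, adjusted p at or under 0.05), against 10.2% of all genes, and the median log2 fold change of all 10 was −0.77. Replicate 3 of 6hPR + FGF2 stood apart from the other 5 libraries in its chromosome W transcripts: *HINTW* was at 60.4 in it and at 20330 or more in the others. The total of called genes is also given without it, as are the counts of some lists. Erythrocyte transcripts were present in both groups, and the summed level of 11 erythrocyte markers ran from 444663 to 1116290 in developing RPE and from 739189 to 1727640 after 6hPR + FGF2, with overlap between the groups. In bulk tissue, fewer cells of a type and less RNA per cell cannot be told apart.

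The response reached a large part of the transcriptome within 6 h. Of 18287 genes tested with limma, 3656 (20%) were called (adjusted p at or under 0.05), 1796 (9.82%) higher and 1860 (10.2%) lower after 6hPR + FGF2. These shares are the background for every list count against developing RPE below. Increases were the larger changes: 889 genes (4.86%) were called higher by 2-fold or more, and 496 (2.71%) were called lower by as much. The values of the 2 groups did not overlap for 7051 genes (38.6%). Genes named below for the size or p value of their change had to show no overlap, so it is no added support for them. Without 6hPR + FGF2 replicate 3, 3323 genes were called, and 3016 of these belonged to the 3656. The plot of fold change against mean level shows that increases reached farther than decreases, both in genes near 0 in developing RPE, such as *MMP9*, and in genes already detected there, such as *PTPRO*, *HGF*, *SIX6* and *SCG2*.

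**Figure D1:**
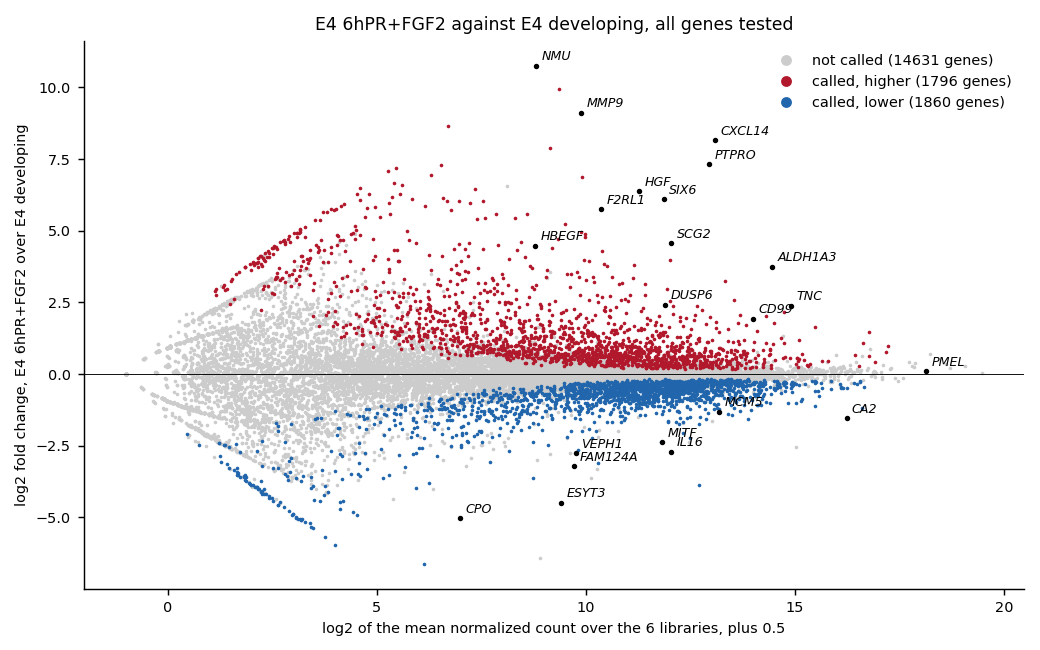
Each point is a gene, placed by the log2 of its mean normalized count over the 6 E4 libraries (x axis) and its log2 fold change in 6hPR + FGF2 over developing RPE (y axis). Red points (1796) were called higher, blue points (1860) lower, and gray points were not called; labelled genes are drawn in black, and they include *NMU* (fitted value 10.76, set by the pseudocount because *NMU* was at 0 in developing RPE) and *ESYT3* at −4.49.

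Neural retina transcription factors were often higher. Of the 19 tested, 9 were called higher, against 9.82% of all genes, and the median log2 fold change of the list was 0.77 against −0.01 over all genes. With limma 0 were called lower, and 0 were lower at an unadjusted p under 0.05 or by edgeR or DESeq2. *SIX6* (ENSGALG00000020359), a homeodomain factor of the optic vesicle and retina, was at 125, 77.0 and 119 in developing RPE, at 620.4, 1514 and 1439.6 after 6hPR alone, and at 6713, 8127 and 7078 after 6hPR + FGF2. The 3 groups did not overlap, and *SIX6* was the transcription factor of the list with the largest change (log2 fold change 6.11, SE 0.71, adjusted p = 2.6e-05). *RAX2* (ENSGALG00000013431), a retinal homeobox gene linked to photoreceptors, rose from 83.0, 87.5 and 219 to 1657, 1822 and 2047 (log2 fold change 3.97, SE 0.64, adjusted p = 0.00042). *LHX2*, a LIM homeodomain factor that the whole optic vesicle requires, rose from 3169.5 ± 324 to 5578 ± 789.9 (log2 fold change 0.81, SE 0.15, adjusted p = 0.0011).

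Other members of the list had smaller changes or were not called. *VSX1*, a homeodomain factor of bipolar cells, rose from 20.5, 17.5 and 37.1 to 246, 201 and 199.6 (log2 fold change 3.15, adjusted p = 0.02). *SIX3*, a partner of *SIX6* in early eye and forebrain, rose from 3551 ± 204 to 5039.7 ± 672 (log2 fold change 0.50, adjusted p = 0.013). The *VSX1* call was lost without 6hPR + FGF2 replicate 1, developing replicate 1 or developing replicate 2, and that of *SIX3* without 6hPR + FGF2 replicate 1 or developing replicate 2. *SOX2*, which maintains neural progenitors, was at 65.5, 113 and 131 in developing RPE and 722, 297 and 210.4 after 6hPR + FGF2. The groups did not overlap, but replicate 1 was well above the other treated libraries and the gene was not called (log2 fold change 1.84, 95% interval 0.48 to 3.21, adjusted p = 0.055). The result depended on the method: *SOX2* was called higher by edgeR, by DESeq2 and with array weights. It was also called with a mean of 10 or more and without 6hPR + FGF2 replicate 3. *RAX* and *PAX6*, which are required throughout early eye formation, had log2 fold changes of 0.75 (95% interval −0.33 to 1.83) and 0.24 (−0.21 to 0.68) and were not called. Without 6hPR + FGF2 replicate 1 or developing replicate 2, the number of retina factors called higher fell from 9 to 5.

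Genes of neurogenesis and Notch signalling moved in both directions. Among 21 tested, 5 were called higher and 3 lower. *NEUROD1*, a neuronal differentiation factor, was at 7.82, 0 and 76.7 in developing RPE, at 8.03, 19.97 and 10.5 after 6hPR, and at 227, 265 and 425 after 6hPR + FGF2 (log2 fold change 5.43, SE 1.32, adjusted p = 0.0081). The size of its change rested on the few developing reads, ranging from 3.54 without developing replicate 2 to 7.18 without developing replicate 3, and the call was lost with only the compared groups in the fit. The number of list members called higher fell to 3 without 6hPR + FGF2 replicate 1 or 3, or developing replicate 2. *NRARP*, a feedback regulator that Notch induces, rose from 215 ± 21.7 to 420.2 ± 25.6 (log2 fold change 0.97, SE 0.16, adjusted p = 0.00042). *HEY1*, a Notch effector and transcriptional repressor, fell from 9164 ± 514 to 5377 ± 379 (log2 fold change −0.77, SE 0.16, adjusted p = 0.0032). *OLIG2*, a basic helix-loop-helix factor of neural progenitors, was at 0, 3.50 and 22.6 in developing RPE and at 209.9, 292 and 221 after 6hPR + FGF2 (log2 fold change 6.06, or 4.53 with a pseudocount of 5 in place of 0.5).

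**Figure D2:**
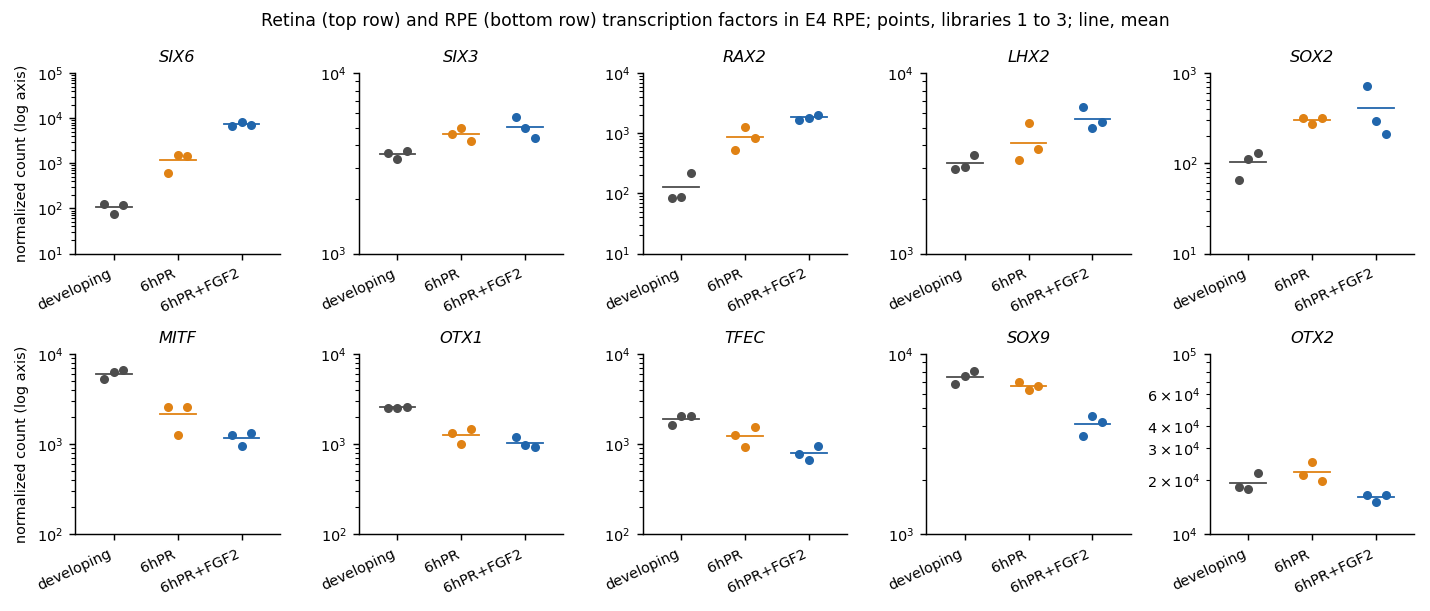
Normalized counts on log axes for 5 retina transcription factors (top row) and 5 RPE transcription factors (bottom row) in E4 developing, 6hPR and 6hPR + FGF2 RPE; points are libraries 1 to 3 and lines are means. *SIX6* separates all 3 groups, and *MITF* lies below developing RPE in both operated groups, while *OTX2* was not called between 6hPR + FGF2 and developing RPE.

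The list of RPE transcription factors, which also held broader eye factors such as *CRX* and *NR2F1*, was called in both directions. Of 10 tested, 4 were called lower (10.2% of all genes were) and 3 higher. *MITF* (ENSGALG00000039583), the basic helix-loop-helix zipper factor that directs pigment cell identity, fell from 5303, 6311 and 6589 to 1254, 955 and 1317 (log2 fold change −2.38, SE 0.25, adjusted p = 1.2e-05). After 6hPR alone it was at 2592, 1259 and 2584, below every developing library and overlapping the 6hPR + FGF2 values. Its relative *TFEC* fell from 1909 ± 244 to 796 ± 141 (log2 fold change −1.27, adjusted p = 0.0038). *OTX1* fell from 2556 ± 39.8 to 1038 ± 139 (log2 fold change −1.31, adjusted p = 6.7e-05), while its paralog *OTX2* was at 19369 ± 2250.1 and 16113 ± 809 and was not called (log2 fold change −0.26, 95% interval −0.47 to −0.05, adjusted p = 0.075). DESeq2 and the fit with array weights did call *OTX2* lower. *SOX9*, an HMG-box factor with which MITF and OTX2 drive RPE genes in mammals, was at 6839, 7595 and 8052 in developing RPE, at 7009, 6328 and 6627 after 6hPR, and at 3519.9, 4519.8 and 4179 after 6hPR + FGF2 (log2 fold change −0.88, SE 0.11, adjusted p = 5.3e-05). The developing and 6hPR values overlapped, and the 6hPR + FGF2 values lay below both. The 3 members called higher were *OTX5*, the chicken gene matched to *CRX* (log2 fold change 1.62), *TBX2*, a T-box factor of the dorsal eye (1.33), and *NR2F1*, an orphan nuclear receptor (0.96). The paper places CRX among homeobox factors of eye development and links NR2F1 to RPE against neural retina identity.

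The enzymes of melanin synthesis and *PMEL* were not called, while many other genes of the melanosome were lower. Of 23 melanin and melanosome genes, 12 were called lower and 1 higher, with a median log2 fold change of −0.70. *TYR*, the rate-limiting enzyme of melanin synthesis, was at 67187, 58503 and 70382 in developing RPE and at 68833, 38589 and 58543 after 6hPR + FGF2 (log2 fold change −0.28, 95% interval −0.67 to 0.11). *DCT* and *TYRP1*, the other melanin enzymes, had log2 fold changes of −0.19 (95% interval −0.52 to 0.14) and −0.08 (−0.70 to 0.55), and the melanosome fibril protein gene *PMEL* 0.11 (−0.31 to 0.53). For all 4 genes the groups overlapped. *SLC45A2* (ENSGALG00000003310), a melanosome membrane transporter, fell from 1439.9, 1554 and 1606 to 493, 335 and 348 (log2 fold change −1.99, SE 0.21, adjusted p = 1.3e-05), and it was at 1033, 675 and 909.6 after 6hPR, so the 3 groups did not overlap. *MLANA*, a melanosome membrane protein, fell from 7766 ± 494 to 2525 ± 945 (log2 fold change −1.68, SE 0.20, adjusted p = 3.2e-05). *MC1R*, the melanocortin receptor, was at 201, 153 and 265 in developing RPE and at 57.7, 18.2 and 91.7 after 6hPR + FGF2 (log2 fold change −2.12, or −1.46 without 6hPR + FGF2 replicate 2), a call lost with only the compared groups in the fit. *GPNMB* (ENSGALG00000010949), a glycoprotein of melanosomes and lysosomes, was the member that rose, from 24242, 23244 and 17874 to 86654, 47299 and 76699 (log2 fold change 1.65, SE 0.31, adjusted p = 0.0014).

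The visual cycle and mature RPE list gave 1 call higher and 3 lower among 19, or 5.26% and 15.8%, against 9.82% and 10.2% of all genes. The higher count was 3 without 6hPR + FGF2 replicate 2. *ABCA4* (ENSGALG00000005752), a retinoid transporter, was at 1279.7, 1469 and 2327 in developing RPE, at 1519, 1708 and 1627 after 6hPR, and at 327, 434 and 590.1 after 6hPR + FGF2 (log2 fold change −1.90, SE 0.26, adjusted p = 0.00011). *RPE65* (ENSGALG00000011259), the isomerase that regenerates 11-cis retinoid, was at 530.4, 426 and 526 in developing RPE, at 367, 828 and 379 after 6hPR, and at 257, 136 and 213 after 6hPR + FGF2 (log2 fold change −1.33, SE 0.28, adjusted p = 0.0028). For both genes developing and 6hPR libraries overlapped, and all 6hPR + FGF2 libraries lay below them. *RLBP1*, the retinaldehyde carrier, was not called (log2 fold change 0.14, 95% interval −0.34 to 0.62). *STRA6*, the receptor for retinol uptake, rose from 8551 ± 846 to 19792 ± 3942 (log2 fold change 1.20, SE 0.18, adjusted p = 0.00027).

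Retinoic acid genes were called in both directions. *ALDH1A3* (ENSGALG00000033365), an enzyme that makes retinoic acid in the ventral eye, rose from 3907, 5084 and 1448 to 37269, 38407 and 48357 (log2 fold change 3.74, SE 0.61, adjusted p = 0.00048). The 6hPR values were 12014, 3715 and 9027, overlapping developing RPE and below every 6hPR + FGF2 library. *CRABP2*, which carries retinoic acid to its nuclear receptors, fell from 11267 ± 1333 to 3779 ± 279 (log2 fold change −1.57, SE 0.16, adjusted p = 1e-05), and *RARB*, a retinoic acid receptor and target, fell from 6730.2 ± 418 to 4916 ± 484 (log2 fold change −0.46, SE 0.09, adjusted p = 0.0016). In the whole retinoic acid list, 4 of 17 were called higher and 3 lower.

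Transport genes that serve RPE physiology were more often lower: 11 of 31 were called lower and 5 higher. The lower count was 6 without 6hPR + FGF2 replicate 2 or developing replicate 3 and 7 without 6hPR + FGF2 replicate 1. It was 13 without 6hPR + FGF2 replicate 3. The higher count was 3 without developing replicate 2. *CA2* (ENSGALG00000030781), carbonic anhydrase, was at 121746, 106558 and 114644 in developing RPE, at 65213, 74346 and 68908 after 6hPR, and at 46731, 32865 and 40100.3 after 6hPR + FGF2 (log2 fold change −1.53, SE 0.14, adjusted p = 2.7e-06), and the 3 groups did not overlap. *SLC4A4*, a sodium bicarbonate cotransporter, fell from 8318, 10192 and 9949.5 to 2022, 1577 and 2623 (log2 fold change −2.22, SE 0.43, adjusted p = 0.0016). *ATP1B1*, a subunit of the sodium pump, fell from 38744 ± 851 to 19369.5 ± 203 (log2 fold change −1.0, SE 0.0854, adjusted p = 1.9e-06). Increases included the zinc importer *SLC39A12* (log2 fold change 2.75), the water channel *AQP1* (2.23) and the bicarbonate transporter *SLC4A5* (2.01).

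**Figure D3:**
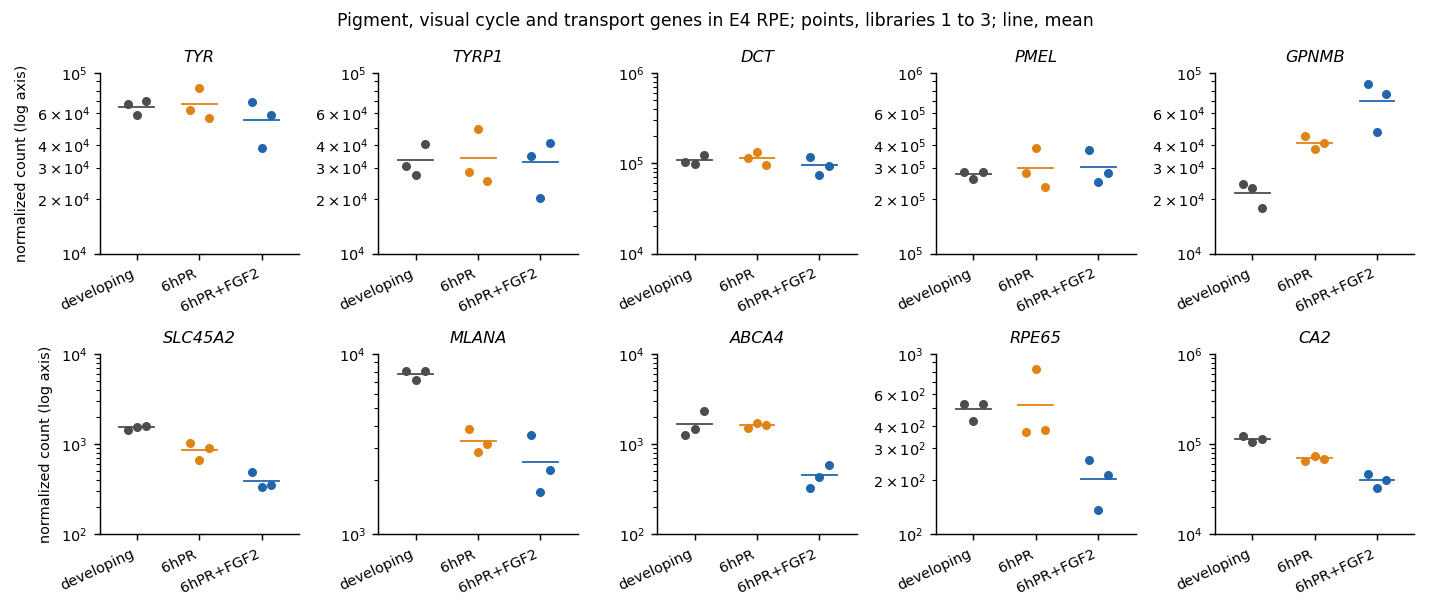
Normalized counts on log axes for 10 pigment, visual cycle and transport genes in E4 developing, 6hPR and 6hPR + FGF2 RPE; points are libraries 1 to 3 and lines are means. *TYR*, *TYRP1*, *DCT* and *PMEL* overlap between groups, *SLC45A2* and *CA2* step down across the groups, and *ABCA4* and *RPE65* are low only in the 6hPR + FGF2 libraries among those shown.

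The FGF and ERK feedback genes gave the highest share of increases of any list. Of 21 tested, 15 were called higher and 1 lower, with a median log2 fold change of 0.77. *DUSP6* (ENSGALG00000011207), a phosphatase that inactivates ERK, was at 1205, 1038 and 1352 in developing RPE, at 1420.4, 2494 and 1239 after 6hPR, and at 7384, 5532 and 6393 after 6hPR + FGF2 (log2 fold change 2.42, SE 0.20, adjusted p = 1.4e-06). *SPRY4* (ENSGALG00000033012), an intracellular inhibitor of receptor tyrosine kinase signalling, was at 80.1, 109 and 83.1 in developing RPE, at 159.6, 311 and 93.6 after 6hPR, and at 663, 735 and 851 after 6hPR + FGF2 (log2 fold change 3.04, SE 0.39, adjusted p = 6.5e-05). *ETV4* (ENSGALG00000036678), an ETS factor induced by FGF, was at 639, 683 and 771 in developing RPE, at 1062, 2398 and 800.3 after 6hPR, and at 5559, 4612 and 4199.9 after 6hPR + FGF2 (log2 fold change 2.77, SE 0.31, adjusted p = 2e-05). In all 3 genes the 6hPR + FGF2 libraries lay above every 6hPR library, and 6hPR replicate 2 was the highest of its own group. *SPRY1* (log2 fold change 2.08), *SPRY2* (1.32), *DUSP5* (2.23) and *ETV5* (0.96) also rose. *LRIG3*, a transmembrane protein related to an inhibitor of ERBB receptors, was the member called lower (log2 fold change −0.42, adjusted p = 0.029). That call was lost with only the compared groups in the fit, and without replicate 1 or 2 of either group.

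Receptors and ligands of the FGF family were more often higher. In this list, 8 of 19 genes were called higher and 1 lower. *FGFR1* rose from 16831, 17692 and 17989.8 to 39114, 38792 and 34769.8 (log2 fold change 1.10, SE 0.11, adjusted p = 8.1e-06). *FGFR3* was the member called lower (log2 fold change −1.07), and *FGFR2* was not called (log2 fold change −0.29, 95% interval −0.70 to 0.11). *FGF10*, a ligand of mesenchyme-to-epithelium signalling, was at 16.6, 22.8 and 12.1 in developing RPE, at 20.1, 15.3 and 24.2 after 6hPR, and at 102, 84.2 and 118 after 6hPR + FGF2 (log2 fold change 2.56, SE 0.50, adjusted p = 0.002). *FGF2* itself was at 78.2, 65.6 and 77.5 in developing RPE and at 134, 124 and 132 after 6hPR + FGF2 (log2 fold change 0.82, adjusted p = 0.014, lost without developing replicate 2). The beads supply protein, which these counts do not measure.

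Hepatocyte growth factor and its receptor rose, as did 4 of 12 genes of the EGF receptor family and its ligands. *HGF* (ENSGALG00000033974), hepatocyte growth factor, was at 62.5, 60.4 and 49.2 in developing RPE, at 479, 1554 and 425 after 6hPR, and at 4329, 4475 and 5805 after 6hPR + FGF2 (log2 fold change 6.39, SE 0.43, adjusted p = 2.9e-07). *MET* (ENSGALG00000036883), the receptor of HGF, was at 83.0, 86.6 and 65.4 in developing RPE, at 267, 375 and 251 after 6hPR, and at 1004, 1195 and 772 after 6hPR + FGF2 (log2 fold change 3.64, SE 0.24, adjusted p = 2.1e-07). The 3 groups did not overlap for either gene. *HBEGF* (ENSGALG00000000949), a ligand of the EGF receptor, was at 54.7, 22.8 and 41.2 in developing RPE, at 146, 247 and 148 after 6hPR, and at 849, 966 and 717 after 6hPR + FGF2 (log2 fold change 4.48, SE 0.43, adjusted p = 4.5e-06). *NRG1*, neuregulin, rose from 13.7, 16.6 and 13.7 to 166, 195 and 299.9 (log2 fold change 3.82, SE 0.46, adjusted p = 3.2e-05), and *ERBB3*, a neuregulin receptor, from 257, 229 and 494 to 2101, 2272 and 1959 (log2 fold change 2.77, SE 0.37, adjusted p = 8.2e-05). *ERBB3* is also a marker of neural crest, whose list is summarised with the other markers. The coreceptor gene *ERBB2* rose from 5309 ± 138 to 7481 ± 465 (log2 fold change 0.49). The other members of the EGF receptor list were not called, and the median of the list was 0.20. *F2RL1* (ENSGALG00000014984), a protease-activated receptor, rose from 65.5, 49.9 and 30.7 to 2741, 2928 and 2066 (log2 fold change 5.76, SE 0.46, adjusted p = 1.1e-06).

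Immediate early genes, the transcription factors and regulators that cells induce first on stimulation, were mostly higher at 6 h. Of 26, 17 were called higher and 1 lower. *FOS* was at 138, 123 and 152 in developing RPE, at 874, 2849.9 and 578 after 6hPR, and at 1813, 1635 and 1443 after 6hPR + FGF2 (log2 fold change 3.56, SE 0.39, adjusted p = 1.6e-05). *EGR1* was at 506, 485 and 607 in developing RPE, at 1777, 2786 and 1898 after 6hPR, and at 2552, 2566 and 2370.2 after 6hPR + FGF2 (log2 fold change 2.23, SE 0.16, adjusted p = 3.7e-07). For both, the 6hPR and 6hPR + FGF2 libraries overlapped, and both groups lay above developing RPE. *JUN* (log2 fold change 1.09), *EGR2* (2.73) and *FOSL2* (1.99) rose as well. *MYC*, a driver of growth genes, was at 904, 821 and 697 in developing RPE, at 949.6, 1433 and 1164 after 6hPR, and at 2885, 2111 and 1861 after 6hPR + FGF2 (log2 fold change 1.48, SE 0.18, adjusted p = 3.8e-05), with all 6hPR + FGF2 libraries above all 6hPR libraries.

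Cytokine genes were called higher in 11 and lower in 3 of 26 cases. *SOCS3* (ENSGALG00000027786), a feedback inhibitor of JAK-STAT signalling, was at 175, 117 and 95.2 in developing RPE, at 855, 2877 and 575 after 6hPR, and at 3189, 2795 and 1692 after 6hPR + FGF2 (log2 fold change 4.30, SE 0.45, adjusted p = 1e-05). *CISH*, of the same inhibitor family, rose from 224 ± 32.5 to 938 ± 184 (log2 fold change 2.05, SE 0.26, adjusted p = 5.1e-05). *SOCS2*, another relative, fell from 1134 ± 126 to 782 ± 65.7 (log2 fold change −0.53). *TNFAIP6*, a hyaluronan-binding protein induced in inflammation elsewhere, fell from 436, 395 and 329 to 144, 71.8 and 106 (log2 fold change −1.89, SE 0.30, adjusted p = 0.00038). The chemokine *CXCL12* fell from 5274 ± 383 to 3171 ± 477 (log2 fold change −0.74, adjusted p = 0.02), a call lost without 6hPR + FGF2 replicate 3, developing replicate 1 or developing replicate 3, while its receptor *CXCR4* rose (log2 fold change 3.14).

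Genes that remodel the matrix and attach cells to it were more often higher than lower. *MMP9* (ENSGALG00000006992), a gelatinase, was at 9.77, 5.25 and 0 in developing RPE, at 168, 278 and 116 after 6hPR, and at 3052, 1333 and 1253 after 6hPR + FGF2. The groups did not overlap, and the log2 fold change was 9.12 (SE 0.76, adjusted p = 1.4e-06), or 7.57 with a pseudocount of 5 and 7.81 without developing replicate 3. *TIMP2*, a metalloprotease inhibitor, rose from 9830.3, 9140.5 and 10799 to 51788, 46634 and 35369.6 (log2 fold change 2.15, SE 0.20, adjusted p = 3.6e-06). *TNC* (ENSGALG00000039990), tenascin C, a matrix glycoprotein of wounds and development, rose from 8455, 9049 and 11973 to 41566, 55687 and 56622 (log2 fold change 2.39, SE 0.22, adjusted p = 4.1e-06). *ITGA4* (ENSGALG00000041577), an integrin chain that binds fibronectin, rose from 1619, 1991 and 2171 to 14285, 18305 and 23038 (log2 fold change 3.25, SE 0.21, adjusted p = 2e-07), and *ITGA2*, a collagen receptor chain, from 379 ± 43.8 to 1011 ± 119 (log2 fold change 1.41). *LAMB2*, a basement membrane laminin chain, fell from 9592 ± 117 to 4895 ± 431 (log2 fold change −0.97, SE 0.16, adjusted p = 0.00047). Among proteases and inhibitors 6 of 24 were called higher and 2 lower, among matrix genes 13 and 4 of 35, and 5 of 15 integrins were called higher. The lower count for matrix genes was 1 without 6hPR + FGF2 replicate 1 or developing replicate 2 and 2 without developing replicate 3, and that for proteases and inhibitors was 1 without 6hPR + FGF2 replicate 1 or developing replicate 1 or 3. The integrin count was 2 without 6hPR + FGF2 replicate 1 and 3 without developing replicate 2.

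Of 28 actin, tubulin and contractile genes, 7 were called higher, 1 lower and 20 not, with a median log2 fold change of 0.17. *ACTA2* (ENSGALG00000006343), smooth muscle actin, was at 5413, 4615 and 5202 in developing RPE, at 17483, 15283 and 8246 after 6hPR, and at 21885, 22958 and 19325 after 6hPR + FGF2 (log2 fold change 2.07, SE 0.26, adjusted p = 5.6e-05). *TAGLN*, an actin-binding protein, was at 444, 352 and 305 in developing RPE, at 2145, 3972 and 2219 after 6hPR, and at 3697, 3954 and 2480.2 after 6hPR + FGF2 (log2 fold change 3.19, SE 0.36, adjusted p = 2e-05), with overlap between both operated groups. *CD44*, a hyaluronan receptor, rose from 199, 141 and 173 to 866, 768 and 556 (log2 fold change 2.08, SE 0.31, adjusted p = 0.00021), and *TUBB6*, a tubulin, from 5398 ± 223 to 16061 ± 2865 (log2 fold change 1.56, SE 0.15, adjusted p = 5.1e-06). The list of genes for epithelial-mesenchymal transition gave 8 called higher and 2 lower of 16. Those lower were the transcription factors *TWIST1* (log2 fold change −0.73) and *PRRX1* (−0.98), which also mark mesenchyme. Both calls were lost without 6hPR + FGF2 replicate 1 or developing replicate 1 and with only the compared groups in the fit, and that of *PRRX1* also without 6hPR + FGF2 replicate 3 or developing replicate 2. *GJA1* (ENSGALG00000014873), the gap junction protein connexin 43, fell from 132421, 141625 and 143255 to 56477, 64391 and 64470.1 (log2 fold change −1.17, SE 0.25, adjusted p = 0.003). Junction genes as a list had 5 called higher and 2 lower of 27, the first at 2 without 6hPR + FGF2 replicate 1 or 3 or developing replicate 2, and at 3 without developing replicate 1 or 3.

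Genes of DNA replication and mitosis fell almost throughout. Of 37 S phase genes 35 were called lower, with a median log2 fold change of −0.83. Among 44 G2/M genes 36 were called lower, with a median of −0.69. Without 6hPR + FGF2 replicate 3 the lower counts were 32 for S phase and 33 for G2/M genes. In either list 0 members were called higher by limma, and 0 were higher at an unadjusted p under 0.05 or by edgeR or DESeq2. *MCM5* (ENSGALG00000012546), a subunit of the replicative helicase, was at 13649.9, 14031 and 12229 in developing RPE, at 5924, 5754 and 7024 after 6hPR, and at 5212, 6681 and 4389 after 6hPR + FGF2 (log2 fold change −1.31, SE 0.13, adjusted p = 4.7e-06). *CCNE2*, the cyclin of entry into S phase, was at 2667, 2675 and 2814 in developing RPE, at 987, 927 and 1185 after 6hPR, and at 1089, 1287 and 1045 after 6hPR + FGF2 (log2 fold change −1.26, SE 0.18, adjusted p = 0.00016). For both genes the operated groups overlapped each other and lay below developing RPE. *DTL*, an adaptor for protein degradation in S phase, had a log2 fold change of −1.47 (adjusted p = 0.00016), and *GINS2*, a helicase cofactor, −1.27 (adjusted p = 3.5e-05). *TOP2A*, the topoisomerase of dividing cells, fell from 47527 ± 2954 to 26021 ± 3396 (log2 fold change −0.88, SE 0.18, adjusted p = 0.0031).

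Regulators of the G1 phase were mixed, 6 called higher and 11 lower of 28. The lower count was 6 without 6hPR + FGF2 replicate 1, 7 without developing replicate 2 and 9 without 6hPR + FGF2 replicate 3. The cyclin-dependent kinase inhibitors *CDKN1A* and *CDKN1B* rose, *CDKN1A* from 68.4, 45.5 and 44.4 to 246, 171 and 119.8 (log2 fold change 1.72, SE 0.37, adjusted p = 0.0035) and *CDKN1B* from 4803 ± 262 to 6401 ± 685 (log2 fold change 0.41, SE 0.09, adjusted p = 0.005). *GADD45B*, a stress-induced inhibitor of the cell cycle, rose from 479.6 ± 57.4 to 1782 ± 315 (log2 fold change 1.88, SE 0.29, adjusted p = 0.00027). *CCND1*, the G1 cyclin induced by growth factors, was at 1921, 1888 and 1993 in developing RPE and at 2917, 2875 and 2661 after 6hPR + FGF2 (log2 fold change 0.54, adjusted p = 0.028), and the call was lost without any 1 of the 6 libraries except 6hPR + FGF2 replicate 3. *E2F8*, a repressor of the E2F family, fell from 3389.9 ± 135 to 1538 ± 167 (log2 fold change −1.15, SE 0.15, adjusted p = 8.9e-05), and *E2F1* was not called (log2 fold change −0.48, 95% interval −1.02 to 0.06). With only the compared groups in the fit, *E2F1* was called lower.

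Signals of the BMP, TGF-beta and WNT families were called in both directions. *BMP4*, a dorsal eye signal, rose from 1341, 1236 and 1943 to 6328, 4318 and 4279 (log2 fold change 1.73, SE 0.31, adjusted p = 0.00099), and *SMAD6*, an inhibitor induced by BMP, from 1941 ± 107 to 5391 ± 530.4 (log2 fold change 1.47, SE 0.18, adjusted p = 5.1e-05). *BMP6*, a ligand of the same family, was at 1995, 2177 and 2423 in developing RPE, at 2677, 1763 and 2263 after 6hPR, and at 779, 690.1 and 1246 after 6hPR + FGF2 (log2 fold change −1.32, SE 0.20, adjusted p = 0.00021). The pseudoreceptor *BAMBI* fell (log2 fold change −1.10). *ID4* (ENSGALG00000039474), an inhibitor of basic helix-loop-helix factors, was at 622, 508 and 609 in developing RPE, at 424, 672 and 470.1 after 6hPR, and at 2064, 1429 and 1311 after 6hPR + FGF2 (log2 fold change 1.44, SE 0.26, adjusted p = 0.0011). *LTBP2*, a matrix protein related to TGF-beta binding proteins, rose from 182, 196 and 183 to 1993, 2268 and 1339 (log2 fold change 3.28, SE 0.29, adjusted p = 2.7e-06), the activin inhibitor *FST* from 35.2, 14.9 and 23.4 to 299, 200.05 and 206 (log2 fold change 3.30, SE 0.48, adjusted p = 0.00018), and *TGFB2* from 603, 502 and 448 to 4375, 2762 and 1493 (log2 fold change 2.35, SE 0.47, adjusted p = 0.0022). In the BMP and ID list 6 of 24 were called higher and 4 lower, and in the TGF-beta and activin list 7 and 2 of 23.

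In the WNT list 9 of 49 were called higher and 7 lower. The higher count was 5 without 6hPR + FGF2 replicate 1 or 2 or any 1 developing replicate, and the lower count was 3 without 6hPR + FGF2 replicate 1 or developing replicate 1 or 2. *DKK1* (ENSGALG00000003814), a secreted WNT antagonist, was at 0, 8.75 and 0 in developing RPE, at 35.1, 196 and 58.9 after 6hPR, and at 1339, 1323 and 1274 after 6hPR + FGF2. The groups did not overlap, and with 10 reads in all over the developing libraries the log2 fold change was 9.95 (SE 0.98, adjusted p = 6.2e-06), 7.55 with a pseudocount of 5 and 11.36 without developing replicate 2. *RSPO2*, a secreted amplifier of WNT signalling, fell from 253, 281 and 346 to 96.5, 102 and 88.5 (log2 fold change −1.60, SE 0.25, adjusted p = 0.00028), and the nuclear effector *TCF7* from 356 ± 50.2 to 122 ± 17.5 (log2 fold change −1.54, SE 0.33, adjusted p = 0.0036). The WNT feedback targets *AXIN2* and *LEF1* were not called, with log2 fold changes of 0.07 (95% interval −0.20 to 0.34) and −0.18 (−0.46 to 0.10). *IHH*, a Hedgehog ligand made by RPE, fell from 1552 ± 73.0 to 689 ± 115 (log2 fold change −1.18, SE 0.22, adjusted p = 0.0012), and the Hedgehog coreceptor *CDON* rose from 1981 ± 114 to 4919 ± 483 (log2 fold change 1.31, SE 0.14, adjusted p = 1.5e-05), with 1 of 14 Hedgehog genes called higher and 3 lower.

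Stress and metabolic genes were called in both directions. *MT3*, a metallothionein that binds zinc, rose from 659, 479.6 and 432 to 5853, 2992 and 2403 (log2 fold change 2.75), and *MT4*, a related gene that could share reads with it, from 2602, 2042 and 1877 to 18259, 7211 and 5584 (log2 fold change 2.07). Replicate 1 was the highest of the 6hPR + FGF2 libraries in each. *HSPB1*, a small heat shock protein, rose from 50.8, 28.9 and 41.2 to 300.1, 674 and 439 (log2 fold change 3.49, SE 0.55, adjusted p = 0.00035), whereas *HSP90AB1*, a constitutive chaperone, fell from 81552 ± 1776 to 58991 ± 3139 (log2 fold change −0.47). *SLC7A11*, the cystine importer, fell from 1004 ± 192 to 414 ± 103 (log2 fold change −1.29, SE 0.16, adjusted p = 4.5e-05). *HK2*, hexokinase, rose from 3184 ± 446 to 5760.4 ± 701 (log2 fold change 0.86, SE 0.13, adjusted p = 0.00019). The heat shock and stress list had 10 called higher and 5 lower of 33, the glycolysis and hypoxia list 6 and 1 of 30, and the cholesterol synthesis list 1 and 5 of 23. The higher count for glycolysis was 3 without 6hPR + FGF2 replicate 1 or developing replicate 3, and 8 without 6hPR + FGF2 replicate 3. The lower count for cholesterol synthesis was 1 to 3 without 6hPR + FGF2 replicate 1 or 3 or any 1 developing replicate.

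Axon guidance genes were called higher in 7 and lower in 7 of 35 cases. *SEMA3C*, a secreted semaphorin, rose from 329 ± 90.7 to 978 ± 157 (log2 fold change 1.59, SE 0.37, adjusted p = 0.0059), and *NRP2*, a semaphorin receptor, from 2322 ± 317 to 4555 ± 1138 (log2 fold change 0.95, SE 0.18, adjusted p = 0.0012). The ephrin receptor *EPHA3* fell from 5103, 6021 and 4630.2 to 1993, 1954 and 2513 (log2 fold change −1.29, SE 0.19, adjusted p = 0.00025), and *PLXNA1*, a semaphorin receptor, from 19162 ± 2255 to 9162 ± 1221 (log2 fold change −1.07, SE 0.18, adjusted p = 0.00067). The YAP and TEAD target list had 4 called higher and 1 lower of 17, with the matricellular gene *CYR61* rising from 840.5 ± 147 to 2399 ± 216 (log2 fold change 1.52). Among 32 chromatin regulators 1 was called higher and 4 lower, against 9.82% and 10.2% of all genes. The lower count was 0 without 6hPR + FGF2 replicate 1 or developing replicate 2, 1 without developing replicate 3 and 2 without developing replicate 1.

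**Figure D4:**
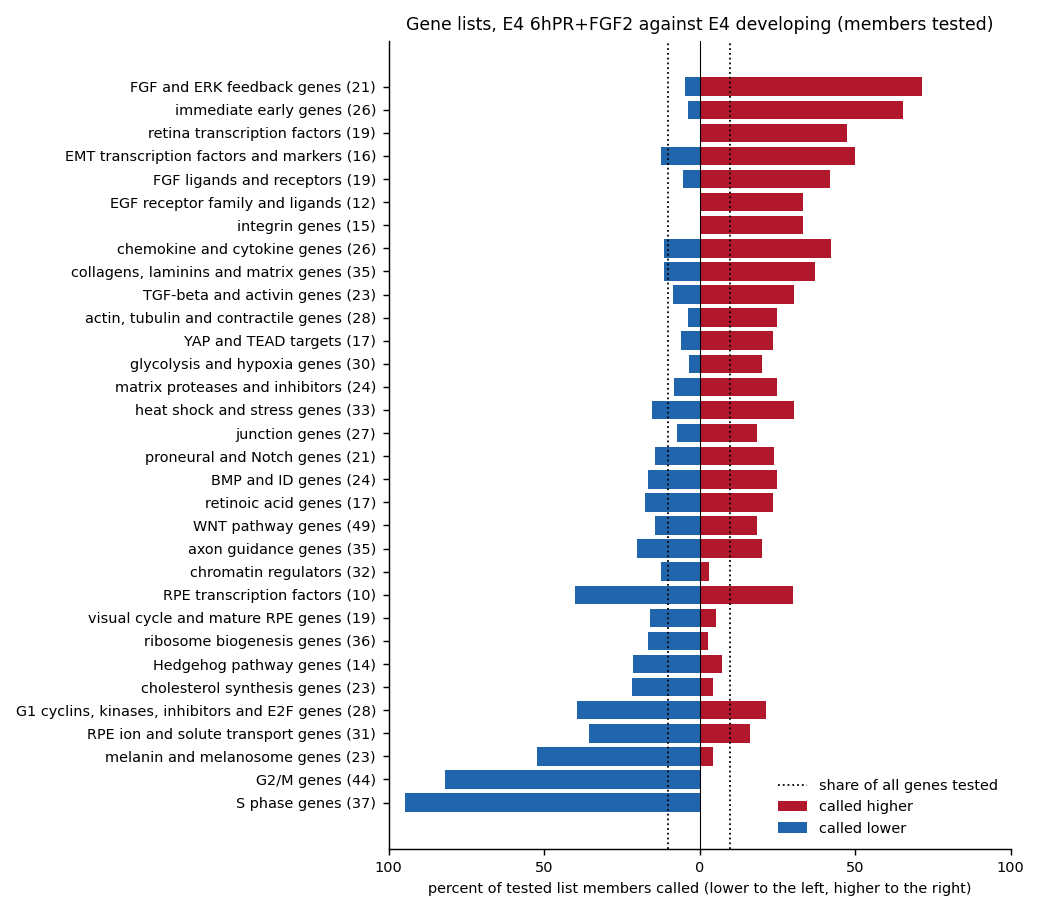
Bars give the percent of tested members of each gene list that were called higher (right) or lower (left) in 6hPR + FGF2 over developing RPE, with the number tested in parentheses; dotted lines are the shares of all genes, 9.82% higher and 10.2% lower. FGF and ERK feedback genes (15 of 21) and immediate early genes (17 of 26) extend farthest to the right, S phase (35 of 37) and G2/M genes (36 of 44) farthest to the left.

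The largest increases over the whole table included genes outside these lists. *NMU* (ENSGALG00000020151), the neuropeptide neuromedin U, was at 0 in all developing libraries, 203, 255 and 238 after 6hPR and 1213, 757 and 712 after 6hPR + FGF2, so it was at least 336-fold higher than 3 counts per developing library. *LACTBL1* was likewise at 0 in developing RPE and at 205, 254 and 158 after 6hPR + FGF2, at least 77.2-fold higher. *PTPRO* (ENSGALG00000013085), a receptor tyrosine phosphatase, was at 84.0, 119.9 and 90.4 in developing RPE, at 452, 1755 and 519 after 6hPR, and at 18119.9, 14294 and 14464 after 6hPR + FGF2 (log2 fold change 7.32, SE 0.52, adjusted p = 3.9e-07). *SCG2* (ENSGALG00000029819), a granin of secretory granules, was at 359, 338 and 289.7 in developing RPE, at 629, 1075 and 691 after 6hPR, and at 11266, 5796 and 7265 after 6hPR + FGF2 (log2 fold change 4.57, SE 0.25, adjusted p = 5.3e-08). *PTPRN*, a protein of secretory granules, rose from 183, 151 and 171 to 1741, 1313 and 1141 (log2 fold change 3.03, SE 0.19, adjusted p = 2e-07). *CYP24A1*, the enzyme that degrades vitamin D, was at 8.79, 8.75 and 0 in developing RPE, at 8.03, 24.7 and 27.3 after 6hPR, and at 307, 397 and 242 after 6hPR + FGF2 (log2 fold change 6.47, or 5.00 with a pseudocount of 5). Among the smallest p values were *CD99*, a surface glycoprotein that rose from 6719 ± 377 to 25824 ± 2912 (log2 fold change 1.94, SE 0.11, adjusted p = 5.3e-08), and *LBH*, a transcriptional cofactor that rose from 2597 ± 66.9 to 9733 ± 488 (log2 fold change 1.90, SE 0.12, adjusted p = 2.1e-07).

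The 6 genes detailed here are a selection from the largest decreases. Other large decreases were those of *CPO* (log2 fold change −5.03), *SLCO1A2* (−3.98), *SERPINE3* (−3.87), *DUOX2* (−3.80) and *VXN* (−3.62). *ESYT3* (ENSGALG00000012092), an extended synaptotagmin of membrane contact sites, fell from 1267, 1179.6 and 1461 to 43.0, 62.2 and 70.1 (log2 fold change −4.49, SE 0.26, adjusted p = 8.6e-08), and its 6hPR values of 195, 130.4 and 122 lay between. *FAM124A* fell from 1352, 1383 and 1800.3 to 188, 141 and 162 (log2 fold change −3.20, SE 0.41, adjusted p = 6.1e-05), and was at 204, 172 and 207 after 6hPR. *IL16*, a cytokine precursor, was at 6626, 6100.4 and 9179.7 in developing RPE, at 4985, 3725 and 3710 after 6hPR, and at 1298, 853 and 1203 after 6hPR + FGF2 (log2 fold change −2.71, SE 0.19, adjusted p = 3.7e-07). *CHRM4*, a muscarinic acetylcholine receptor, fell from 6007, 5896 and 6076 to 1194, 1027 and 1237 (log2 fold change −2.38, SE 0.19, adjusted p = 1.1e-06), and *VEPH1* from 1427, 1447 and 1627 to 261, 189.5 and 217 (log2 fold change −2.76, SE 0.20, adjusted p = 4.2e-07). *GATM*, an enzyme of creatine synthesis, fell from 1555 ± 205 to 251 ± 43.8 (log2 fold change −2.64, SE 0.32, adjusted p = 4e-05). In all 6 genes developing and 6hPR + FGF2 libraries did not overlap, which the rule for naming them required and which held for 38.6% of all genes.

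Markers of other cell types were set beside these lists, with 9.82% of all genes called higher and 10.2% lower as the background. Of 17 markers of retinal neurons 2 (11.8%) were called higher, near the share of all genes. Their summed level overlapped, at 13848 to 17589 in developing RPE and 12235 to 16348 after 6hPR + FGF2, and *POU4F1* was at 0 in all 6 libraries. Retinal progenitor markers, a list that shares genes such as *SIX6* and *SOX2* with those above, summed to 13436 to 15205 and 31930.2 to 44311, with 4 of 10 called higher. After 6hPR alone these markers summed to 24596 to 45191, overlapping the 6hPR + FGF2 values. The median log2 fold change of this list over developing RPE was 1.37 after 6hPR and 1.12 after 6hPR + FGF2. Periocular mesenchyme markers had 3 called higher and 5 lower of 14, and summed to 109324 to 123411 in developing RPE and 144341 to 167508 after 6hPR + FGF2, without overlap. The 3 called higher, *COL3A1*, *COL1A2* and *DCN*, are matrix genes, and those called lower included *TWIST1*, *PRRX1*, *FOXC2* and *LUM*; the part of mesenchyme in the matrix and contractile results was not tested. Endothelial markers had 4 called higher and 1 lower of 10 and summed to 31106 to 34072 and 37483 to 40098. Neural crest and melanocyte markers had 3 higher and 2 lower of 10, summing to 13608 to 16702 and 22694 to 24041. Their median log2 fold change was −0.51, with 4 markers above 0 and 6 below, so the higher sum does not describe most of them. Leukocyte markers gave 2 higher of 12 (16.7%) and lens markers 1 of 12 (8.33%), counts too small to set apart from the share of all genes. None of the 11 erythrocyte or 14 yolk sac or liver markers was called by limma, edgeR or DESeq2. At an unadjusted p under 0.05 the counts were 0 for erythrocytes and, for yolk sac or liver, 1 higher and 1 lower. All 11 erythrocyte markers still had log2 fold changes above 0 after 6hPR + FGF2. Their median over developing RPE was 0.62 after 6hPR + FGF2 and 0.89 after 6hPR. Without 6hPR + FGF2 replicate 1 the count of mesenchyme markers called lower was 1, and it was 2 without developing replicate 1 or 2. The count of progenitor markers was 2 without 6hPR + FGF2 replicate 1 or developing replicate 2 or 3. That of neuronal markers was 0 without developing replicate 2 and 1 without developing replicate 1 or 6hPR + FGF2 replicate 1 or 3. The part of endothelium, neural crest and leukocytes in the growth factor and cytokine results was not tested.

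The direct comparison of 6hPR + FGF2 with 6hPR asks where the response with FGF2 differed from that to retinectomy alone. Fold changes of both groups over developing RPE share the developing libraries, so only their direct difference was tested. With limma 1512 genes (8.27%) were called, 913 (4.99%) higher and 599 (3.28%) lower with FGF2. *SIX6* was higher with FGF2 by a log2 difference of 2.72 (SE 0.71, adjusted p = 0.028), whereas *RAX2* (1.14, adjusted p = 0.32) was not called. Of the 19 retina factors *SIX6* was the 1 called, and that call was lost with only the compared groups in the fit, without the variance trend, and without any 1 of the 6 libraries except 6hPR replicate 2. Among the 21 FGF and ERK feedback genes 12 were called higher, among them *SPRY4* (log2 difference 2.16), *DUSP6* (1.96) and *ETV4* (1.91). With only the compared groups in the fit, the calls of *SPRY1*, *SPRY2*, *SPRY4*, *DUSP5*, *DUSP6*, *ETV4* and *ETV5* were all lost. The count of 12 under the alternatives is not given here. *HGF* (2.82), *HBEGF* (2.26), *NRG1* (3.02), *ERBB3* (2.17) and *MET* (1.73) were also higher with FGF2. Immediate early genes gave 5 calls higher and 1 lower of 26; *MYC* was called (0.95), while *FOS* (0.52, adjusted p = 0.48) and *EGR1* (0.24, adjusted p = 0.41) were not.

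Few cell cycle genes and many ribosome biogenesis genes were called between the operated groups. With limma 0 of the 37 S phase genes were called between 6hPR + FGF2 and 6hPR, against 2 higher and 1 lower at an unadjusted p under 0.05, 0 by edgeR and 1 higher by DESeq2. Their median log2 difference was −0.03. Against developing RPE the median was −0.80 after 6hPR and −0.83 after 6hPR + FGF2. Among G2/M genes 1 of 44 was called lower with FGF2. Of 36 ribosome biogenesis genes 17 were called higher with FGF2 than after 6hPR, with a median log2 difference of 0.36. Against developing RPE their median was −0.40 after 6hPR and −0.08 after 6hPR + FGF2, where 1 was called higher and 6 lower. The lower count was 2 without 6hPR + FGF2 replicate 1 or developing replicate 3, and 3 without 6hPR + FGF2 replicate 3 or developing replicate 2. *NAT10*, an RNA acetyltransferase of the nucleolus, was at 7409, 7357 and 7667 in developing RPE, at 3990.2, 3976 and 4322 after 6hPR, and at 5797, 6257 and 5729 after 6hPR + FGF2. For *NAT10* the 3 groups did not overlap, and the log2 difference between both operated groups was 0.53 (SE 0.07, adjusted p = 0.00031). With only the compared groups in the fit the *NAT10* call held, while those of *DDX10* and *MYBBP1A*, of the same list, were lost. The count of 17 under the alternatives is not given here.

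**Figure D5:**
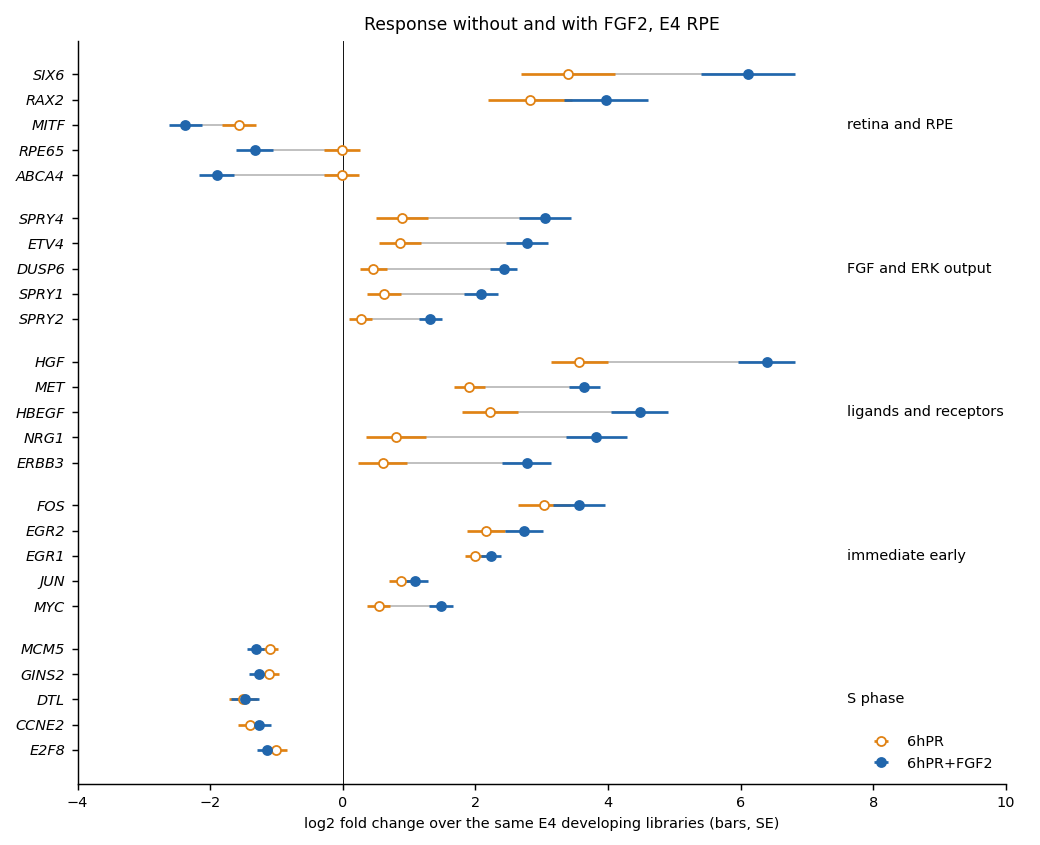
Log2 fold change over the E4 developing libraries after 6hPR (open orange circles) and after 6hPR + FGF2 (filled blue circles), with SE bars; both use the same developing libraries. The circles lie apart for *SIX6*, the FGF and ERK genes and the ligand and receptor genes, and close together for *FOS*, *EGR1*, *JUN* and the S phase genes.

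Some RPE genes were lower with FGF2 than after retinectomy alone, and others were not called between both. *ABCA4* was lower with FGF2 than after 6hPR by a log2 difference of −1.88 (SE 0.26, adjusted p = 0.00059) and *RPE65* by −1.32 (SE 0.28, adjusted p = 0.008), and after 6hPR alone their log2 fold changes over developing RPE were −0.02 and −0.02. *SOX9* (−0.71, adjusted p = 0.0012), *SLC45A2* (−1.15, adjusted p = 0.0038), *CA2* (−0.81, adjusted p = 0.0021) and *OTX2* (−0.45, adjusted p = 0.01) were also lower with FGF2. *MITF* was −0.81 (adjusted p = 0.064) and *OTX1* −0.27 (adjusted p = 0.38), neither called, after log2 changes of −1.57 and −1.04 in 6hPR alone. *GJA1* (−1.07), *BMP6* (−1.33) and *CRABP2* (−1.05) were called lower with FGF2, and *ID4* (1.62) and *ALDH1A3* (2.47) higher. The call of *GJA1* was lost without 6hPR + FGF2 replicate 1 or 6hPR replicate 1 or 3, and that of *ALDH1A3* without any 1 of the 6hPR + FGF2 libraries or 6hPR replicate 2. With only the compared groups in the fit, the calls of *HBEGF*, *NRG1*, *NAT10* and *ABCA4* held, and those of the other called genes named for this comparison were lost. The count of called genes depended on the libraries and the fit: it was 749 without 6hPR replicate 1, 838 without 6hPR + FGF2 replicate 1, 880 without 6hPR replicate 3, 1869 without 6hPR replicate 2, and 197 when only these 6 libraries were fitted.

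The response at E4 was set against that at E5, where the same treatment is applied to RPE that has lost this competence. The difference of the responses (E5 minus E4) was called for 1016 genes (5.56%), 574 (3.14%) higher and 442 (2.42%) lower. *SIX6* had the smaller change at E5: its log2 fold change was 6.11 at E4 and 1.77 at E5 (difference −4.34, SE 1.01, adjusted p = 0.022). That difference was not called without E4 developing replicate 2, without E5 6hPR + FGF2 replicate 1 or 2, or with only the compared groups in the fit. It also depends on E5 developing RPE, whose replicates had the widest spread of the 6 groups. The *SIX6* levels at E5 are not given here, so the smaller fold change does not show how far *SIX6* was induced there. Whether its level after 6hPR + FGF2 differed between E4 and E5 was not tested. *MITF* had log2 fold changes of −2.38 at E4 and −1.18 at E5, and its difference was not called (adjusted p = 0.066). *ACTA2* was at 2.07 at E4 and −0.18 at E5 (difference −2.25, adjusted p = 0.0036), and *ID4* at 1.44 and −0.74 (difference −2.18, adjusted p = 0.0044). *STRA6* rose more at E5, with 1.20 and 3.20 (difference 2.00, adjusted p = 0.00076). Of the 21 feedback genes 2 had a called difference. Leaving out E5 developing replicate 1 raised the count to 2273, and leaving out E4 developing replicate 2 lowered it to 446. It was 487 without E5 6hPR + FGF2 replicate 1, 592 without E5 6hPR + FGF2 replicate 2, 604 without E4 developing replicate 3 and 620 without E4 6hPR + FGF2 replicate 1.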

How the data were processed

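Bulk RNA-seq of poly(A) RNA was analysed in 18 chicken RPE libraries. The values are a normalized signal that the authors made before deposit: after trimming (Trim Galore, Cutadapt), STAR aligned reads to GRCg6a, and these were counted per Ensembl gene with StringTie, filtered for low counts and divided by DESeq2 size factors. Versions are not given in the sources used here, and no coordinates are in the table. Multiplied by the size factor, 100% of values were whole within 1e-06, which gave reads for the count-based alternatives.

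Log2 of the value plus a pseudocount of 0.5 was fitted with limma 3.58.1 in R 4.3.3, using 6 group means over 18 libraries and a variance trend. Of 18336 genes, the 18287 with values summing to 10 or more were tested. P values were two-sided and adjusted by Benjamini-Hochberg over all genes of a comparison, a gene was called at 0.05 or less, and intervals are 95% intervals of the moderated test. Fold changes are differences of mean log2 values with this pseudocount. For low genes they depend on the pseudocount and on single libraries at or near 0, and can be larger than the ratio of the means. The replicates are pools of sheets, and nothing in the labels says whether pools shared an incubation, so p values measure the spread between these pools. The fit was tested on simulated data.

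Named genes were, per list, up to 4 members with the largest change in each direction, the 20 largest increases and decreases, the 10 smallest p values, genes near 0 in 1 group, and a set of eye, FGF and cell cycle genes taken whether called or not; the first 3 kinds had to be called, to average 50 or more and not to overlap between groups. Called markers of other cell types were named after their values were seen. Members and lists were chosen with earlier results of these data known. *OTX5*, *CYR61* and *HN1* were taken for *CRX*, *CCN1* and *JPT1* through RefSeq synonyms. Not every named gene is printed, and results on some are not reported here. Symbols on more than 1 row number 33. Alternatives were pseudocounts of 1 and 5, no filter, a mean of 10 or more, TMM and quantile scaling, no trend, array weights, a replicate block, only the groups compared, a chromosome W covariate from 3 transcripts, edgeR 4.0.16 and DESeq2 1.42.0 on recovered reads, and each replicate left out.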

Additional observations from a re-analysis of the deposited data

Results flagged for a closer look

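The E4 and E5 responses to 6hPR + FGF2 differed, by the limma interaction test, for 36 of the 237 genes chosen by the naming rule, which is a selection on the E4 response. Of all genes tested, 5.56% had a called difference. Values are the log2 fold change at E5 minus that at E4. They depend also on E5 developing RPE, whose replicates had the widest spread of the 6 groups. The test was called under all 25 alternative settings for 19 of the 36 genes. Of the others, the call was lost in 17 settings for *CXCR4*, 14 for *BMP6*, 13 for *CDON* and *COL3A1*, 12 for *GATM*, 11 for *TAGLN*, 10 for *MMP9*, 8 for *WNT2B*, 7 for *SIX3* and *TBX2*, 4 for *SIX6* and *TUBB6*, 3 for *OTX1*, 2 for *ALDH1A2* and 1 for *SOX9*, *SLC7A11* and *C6orf58*. Without E4 developing replicate 2 the call was lost for 14, and without E5 6hPR + FGF2 replicate 1 for 13.

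Among transcription factors and their regulators, the difference was −4.34 for *SIX6*, −0.75 for *SIX3*, −6.38 for *HES5*, −1.07 for *TBX2*, −2.18 for *ID4* and −1.19 for *ID2*. For *HES5*, *ID4* and *SIX3* the log2 fold change was above 0 at E4 (2.83, 1.44 and 0.50) and below 0 at E5 (−3.56, −0.74 and −0.25). *SOX9* (0.75) and *OTX1* (1.05) fell more at E4, and *FOSL2* (1.47) rose more at E5.

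Among contractile and matrix genes the differences were −2.25 for *ACTA2*, −2.62 for *ACTG2*, −1.96 for *TAGLN*, −0.91 for *TUBB6*, −1.44 for *COL3A1*, −0.89 for *P4HA2*, −1.74 for *ITGA4* and 4.35 for *MMP9*. As the genes were named for their E4 response, these values do not describe their lists. There 7 of 28 contractile and 6 of 35 matrix genes had a called difference, against 5.56% of all genes. Signalling genes included *CXCR4* (−1.04), *CDON* (−0.76), *BMP6* (1.02), *AXIN2* (0.98), *WNT2B* (2.47), *SLIT3* (0.94) and *TNFAIP6* (2.21). Transport and metabolic genes included *AQP1* (−2.55), *ALDH1A2* (−1.20), *STRA6* (2.00), *ATP1B1* (0.72), *SLC7A11* (1.07), *GATM* (1.72), *CHAC1* (−2.58) and *NAT10* (0.63). The remaining differences were 1.71 for *SCG2*, 2.63 for *ESYT3* and 4.67 for *C6orf58*. *MMP9* and *C6orf58* were at 0 in all E5 developing libraries, so their E5 fold changes depend on the pseudocount. The groups of 3 libraries are too small for the test of single outlying libraries used in larger groups.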

How the results depend on the processing

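For E4 6hPR + FGF2 against developing RPE, the count of called genes stayed within 1.5 times of 3656 in all 19 alternatives, from 2627 without 6hPR + FGF2 replicate 1 to 4952 with array weights. Of the 224 called genes chosen by the naming rule, 159 kept the call in all of them, none changed sign while called, and 46 lost it without 6hPR + FGF2 replicate 1, 41 without developing replicate 2 and 23 without 6hPR + FGF2 replicate 3.

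For 6hPR + FGF2 against 6hPR, array weights gave 2708 calls (1494 higher, 1214 lower), DESeq2 2295 (978 lower) and only the groups compared 197 (123 higher, 74 lower), against 1512. Over the left-out replicates the count ran from 749 to 1869, with 484 to 1115 higher and 265 to 754 lower. For the E5 minus E4 difference, array weights gave 1629 calls (1008 higher), DESeq2 1888 (997 higher, 891 lower) and only the groups compared 677 (379 higher), against 1016. Over the left-out replicates the count ran from 446 to 2273, with 242 to 1500 higher and 204 to 773 lower. The causes of these shifts were not tested.

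Counts for the gene lists that moved by over 1.5 times, beside those already given, were 3 in place of 5 transport genes higher and 3 in place of 5 junction genes higher with only the groups compared, 2 junction genes without the variance trend, 3 in place of 6 ribosome biogenesis genes lower with quantile normalization, without the trend or with the replicate block, 11 in place of 6 glycolysis genes higher with array weights, and 8 in place of 5 stress genes lower with DESeq2. Over the left-out replicates, proneural genes higher fell from 5 to 3. Calls of a single list member were lost when a library was left out: the lower call among immediate early genes without 6hPR + FGF2 replicate 1 or developing replicate 2 or 3, among YAP and TEAD targets without 6hPR + FGF2 replicate 1 or 2 or developing replicate 2 or 3, among contractile genes without any 1 library except 6hPR + FGF2 replicate 2, and among glycolysis genes without any 1 library. The higher call among cholesterol synthesis genes was lost without any 1 library except 6hPR + FGF2 replicate 3. That among ribosome biogenesis genes was lost without 6hPR + FGF2 replicate 1 or 2 or developing replicate 2 or 3 (2 calls without 6hPR + FGF2 replicate 3), and that among chromatin regulators without 6hPR + FGF2 replicate 2 or 3 or developing replicate 1 or 3 (2 calls without 6hPR + FGF2 replicate 1). Among markers, the lens call was lost without 6hPR + FGF2 replicate 1 or 2 or developing replicate 2, the leukocyte count was 1 without 6hPR + FGF2 replicate 1 or developing replicate 2, and the neural crest lower count was 1 without 6hPR + FGF2 replicate 2 or developing replicate 1 or 2.

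The main fit did not pair libraries by replicate number. Between developing and 6hPR + FGF2 libraries, the correlations of same-numbered deviations were 0.269, 0.0754 and 0.132. Those of unlike numbers ran from −0.195 to 0.0302, so each library correlated best with its own number. The labels do not say whether equal numbers share a batch, and this was not tested. With the replicate number as a block, 3406 genes were called in the main comparison, 1265 against 6hPR and 803 for the stage difference, and 9 of the 224 named calls were lost.

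Each library had more than 53 M reads on genes. Fold changes of genes low in either group moved with the pseudocount, as for *MMP9* in developing RPE (9.12, or 7.57 with a pseudocount of 5) and *CPO* after 6hPR + FGF2 (−5.03, or −3.76).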
